A study of Mus musculus with 24 samples.

Results

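The mouse genes that encode the subunits of the mitochondrial respiratory chain and of ATP synthase were followed in liver across 2 diets and 6 times of day. They were chosen by name: every gene whose symbol begins with Ndufa, Ndufb, Ndufc, Ndufs, Ndufv, Uqcr, Cox4 to Cox8 or Atp5, together with Sdha, Sdhb, Sdhc, Sdhd and the protein genes of mitochondrial DNA, without assembly factors of the Ndufaf series and without pseudogenes. This gave 98 of the 52636 genes in the files, 85 of them in the nucleus and 13 in mitochondrial DNA. Of the 98, 94 had enough counts to be tested, and Cox7b2, Cox8c, mt-Atp8 and mt-Nd4l had not. The rule left out 13 further genes as pseudogenes, 9 of them for the ending ps in their symbol, among them Ndufb1-ps, which the annotation lists as a long noncoding RNA and which held 192673 counts.

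The tested animals were C57BL/6 mice under calorie restriction (CR), which began at 2 months of age, removed 30% of calories and lasted 3 months, and the comparison animals were C57BL/6 mice fed ad libitum (AL). All were 5 months old, and livers were collected at zeitgeber times (ZT, hours after lights on) 2, 6, 10, 14, 18 and 22, which makes 12 groups with 2 libraries apiece. Each library holds polyadenylated RNA that sedimented with polysomes, the ribosome-bearing fraction, sequenced without strand information. Total RNA was not analysed here, so the amount of a transcript and its loading on ribosomes cannot be told apart, and nothing in the labels says whether the libraries of a group come from separate animals, so that the spread between them may be technical.

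The respiratory chain passes electrons from NADH and succinate to oxygen through complexes I to IV and pumps protons across the inner mitochondrial membrane, and complex V, ATP synthase, uses the proton gradient to make ATP. Complex II is encoded in the nucleus alone, whereas the other complexes combine many nuclear subunits with a few core subunits made inside the organelle from mitochondrial DNA. In liver the chain oxidises the reducing equivalents of fatty acid breakdown and supplies the ATP for glucose and urea synthesis. Cytosolic polysomes translate only the nuclear transcripts, while mitochondrial messengers are translated on ribosomes of their own.

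Libraries held 13.8 to 60.8 M counted reads, of which 1.02% to 62.2% lay on ribosomal RNA features. These 363 features are the genes annotated as ribosomal RNA, mitochondrial ones included, and some genes added by name. The added genes are Lars2, Mir6236, AY036118, Gm23935, Gm15564, Gm26917 and Gm42418. In 4 libraries, CR ZT10 replicate 1, CR ZT18 replicate 2, CR ZT22 replicate 1 and AL ZT6 replicate 1, that share was under 3%, and they recur below wherever a mitochondrial transcript is described. Levels are given as CPM, counts scaled to the library's total after that total was multiplied by the trimmed-mean factor of edgeR, so that they carry the same scaling as the fitted differences; the scaled total was 0.637 to 1.66 times the counted reads. Mitochondrial ribosomal RNA took a median of 11.7% of the counts in CR libraries and 3.59% in AL libraries. The 5 hepatocyte markers (Alb, Apoa1, Ttr, Serpina1c and Cps1) together held 39524 to 89937 CPM in CR libraries and 30452 to 71781 CPM in AL libraries, and 0 of the 5 were higher and 1 was lower in CR by the test used below. Of 7 Kupffer cell markers 6 were lower and 1 was higher in CR, with summed levels of 60.3 to 115 CPM in CR and 104 to 354 CPM in AL libraries. Of 6 stellate cell markers 3 were higher and 0 were lower in CR, with summed levels of 158 to 301 CPM in CR and 76.5 to 312 CPM in AL libraries, and of 5 endothelial markers 1 was higher and 0 were lower. The part of these cell types in the results below was not tested, and in liver tissue fewer cells of a type and less RNA per cell cannot be told apart.

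The mitochondrial values rested on 7 of the 13 genes. mt-Cytb (cytochrome b of complex III), mt-Nd1, mt-Co1, mt-Nd4, mt-Nd2, mt-Nd5 and mt-Nd6 held between 286483 and 1192038 counts over the 24 libraries. The catalytic copper subunit gene mt-Co2 held 4039 counts, mt-Co3 2915, mt-Atp6 1639, mt-Nd3 632, mt-Nd4l 28 and mt-Atp8 1. In 5 of these 6, all but mt-Atp8, over 97% of the words of 50 bases in the gene also occur in annotated transcripts of another gene, in the cases shown here nuclear copies of mitochondrial DNA on chromosome 1. These 5 genes supplied 0.205% of the counts of the 13. Of mt-Nd4 and mt-Co1, 62.2% and 51.1% of the words occur in other genes as well, and the copies with the most shared words held 202 and 4081 counts. For mt-Co2 the copy is Gm28661, and a read from the stretch below does not show by its sequence which gene it came from. The first 60 bases of both are given from the GENCODE transcripts of GRCm38, at chrM:7013-7072 on the plus strand and chr1:24615506-24615565 on the minus strand.
mt-Co2: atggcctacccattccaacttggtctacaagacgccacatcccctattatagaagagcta
Gm28661: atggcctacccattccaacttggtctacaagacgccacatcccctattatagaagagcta
The identity runs over all 681 bases of the copy, and mt-Co2 is 684 bases long. Gm28661 held 3278 counts and averaged 4.94 ± 1.85 CPM in CR and 2.91 ± 1.10 CPM in AL libraries (SD, n = 12 each), close to the 6.20 ± 2.59 CPM in CR and 3.63 ± 1.64 CPM in AL of mt-Co2 itself. The levels of mt-Co2, mt-Co3, mt-Atp6, mt-Nd3 and mt-Nd4l are therefore given only as the counts listed under those names. Among the nuclear members, 35 of 85 shared no word of 50 bases with another gene and 7 shared over 20% of their words.

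**Figure D1:**
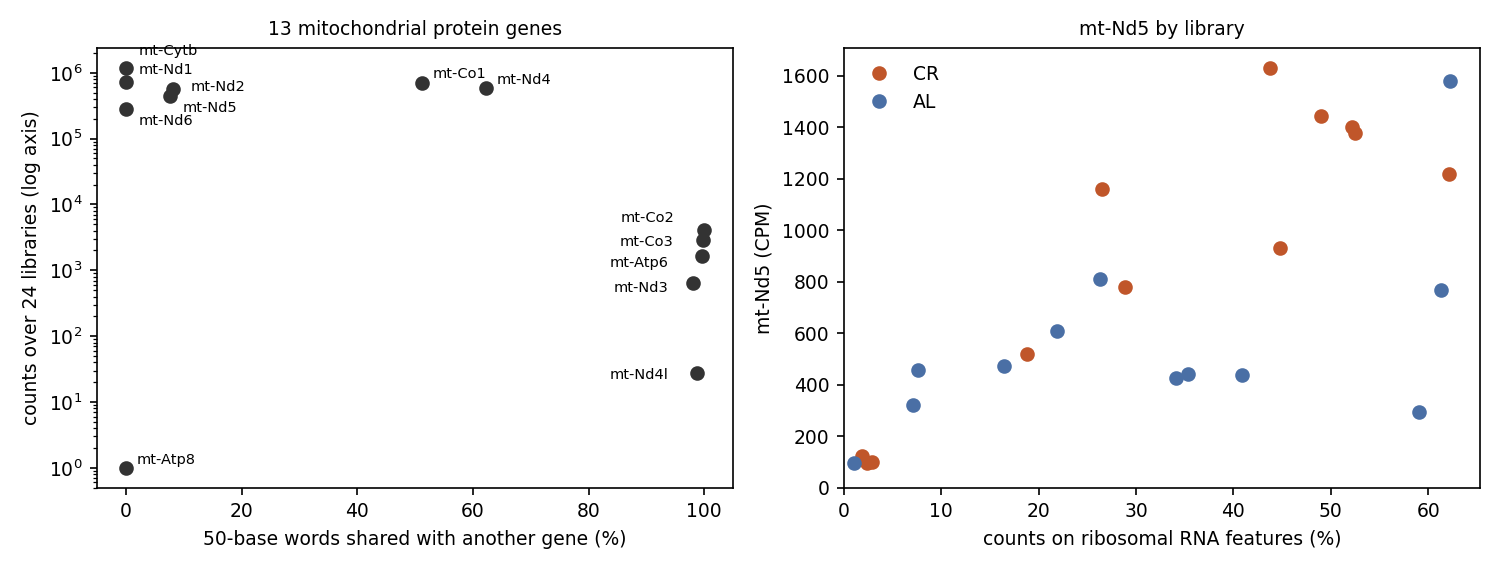
Left, counts over 24 libraries (log axis) of each of the 13 mitochondrial protein genes against the share of its 50-base words found in other genes; the 5 genes above 97% lie at 4039 counts or fewer. Right, mt-Nd5 in CPM against the share of counts on ribosomal RNA features, a point per library, with CR and AL in separate colours; the 4 libraries under 3% have the 4 lowest mt-Nd5 values, 96.3 to 125 CPM.

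Per kilobase of exon, mt-Cytb of complex III had the highest mean listed level in both diets. Each level is the listed counts over the full exon length, also for genes whose 50-base words occur elsewhere. Such genes include mt-Nd4 (62.2% of words) and mt-Co1 (51.1%), and their place in the order over the unshared part was not tested. Within complex I the highest level was that of Ndufa2, an accessory subunit, at 1235 ± 594 CPM per kb in CR and 884.5 ± 527 CPM per kb in AL libraries (SD, n = 12 each), and the lowest nuclear level was that of Ndufb2, at 2.205 ± 0.830 in CR and 2.302 ± 0.899 CPM per kb in AL. In complex II, Sdhb, the iron-sulfur subunit, had the highest level, 132 ± 59.0 CPM per kb in CR and 119.5 ± 47.6 CPM per kb in AL, and Sdhc, a membrane anchor, the lowest, 54.6 ± 16.1 in CR and 48.0 ± 11.8 CPM per kb in AL. Complex III ran from mt-Cytb, with 1262 ± 374 CPM per kb in CR and 1303 ± 714 CPM per kb in AL, to the core protein gene Uqcrc2, with 14.1 ± 6.73 in CR and 16.0 ± 4.44 CPM per kb in AL. The nuclear genes Uqcrq and Uqcr11 of complex III had levels within the spread of mt-Cytb, 1234 ± 566 and 1176 ± 563 CPM per kb in CR libraries. In complex IV the highest level was that of Cox6a1, 940 ± 399 CPM per kb in CR and 1147 ± 525.5 CPM per kb in AL. In complex V it was that of Atp5k, 659 ± 236 CPM per kb in CR and 619.6 ± 278 CPM per kb in AL. The order depends on the length used: of the 10 members with the highest levels, 4 were also among the 10 highest when the median length of the coding transcripts replaced the exon length, and 3 when no length was used.

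Several subunits come in isoforms, and the ubiquitous or liver form had the higher level in each pair named here. Cox6a1, the liver form of subunit VIa, stood at 940 ± 399 CPM per kb in CR libraries against 9.29 ± 19.97 CPM per kb for the heart and muscle form Cox6a2. Cox7a2, the liver form of subunit VIIa, stood at 341 ± 159 CPM per kb in CR against 30.8 ± 15.0 for the muscle form Cox7a1 and 31.1 ± 14.1 for Cox7a2l, which takes part in supercomplex assembly. Cox8a averaged 725 ± 289 CPM per kb in CR and its muscle form Cox8b 12.03 ± 27.1. The CR means of Cox6a2 and Cox8b came mostly from the CR ZT18 libraries. In AL libraries Cox6a2 averaged 0.246 ± 0.343 CPM per kb and Cox8b 0.766 ± 0.662. Cox8c, the testis form, was at 0 in every library. A count of 0 allows up to 3 counts, or 0.0357 to 0.342 CPM by library, which covers counting error only. Cox4i1 reached 787 ± 366 CPM per kb in CR and the lung-type Cox4i2 0.201 ± 0.197, and Cox6b1 reached 890 ± 356 against 0.349 ± 0.349 CPM per kb for Cox6b2, the testis form. Ndufa4, now counted as a subunit of complex IV, stood at 650 ± 360 CPM per kb in CR and its relative Ndufa4l2 at 2.70 ± 1.09. In the values per complex given here both are placed by name in complex I. The 3 genes that encode the same mature c-ring subunit of ATP synthase differed in level, with Atp5g3 at 590 ± 247 CPM per kb in CR, Atp5g1 at 69.8 ± 28.0 and Atp5g2 at 33.1 ± 16.1, although 38.4% of the words of Atp5g2 also occur elsewhere.

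In CR most nuclear genes had their highest mean level at ZT14, whereas in AL the highest means were split between ZT18 and ZT6. Summed over the 85 genes, their level was highest in both CR libraries of ZT14, 49365 and 51405 CPM, and lowest in AL ZT22 replicate 2C, 11488 CPM. Per counted read, without the trimmed-mean factor, AL ZT6 replicate 1 had the highest sum, and AL ZT22 replicate 2C still the lowest. The ratio of the highest to the lowest library was 4.69 for complex I, 2.93 for complex II, 4.93 for complex III, 5.02 for complex IV and 4.03 for complex V. In CR the mean of the ZT14 libraries was the highest of the 6 time points for 72 of the 83 nuclear genes tested (86.7%, against 21.1% of all tested genes), and the lowest mean fell at ZT2 for 40 of them (48.2%, against 20.5%) and at ZT10 for 26 (31.3%, against 13%). In AL the highest mean fell at ZT18 for 39 (47.0%, against 18.4%) and at ZT6 for 34 (41.0%, against 17.5%). The lowest fell at ZT22 for 56 (67.5%, against 22.5%). The 2 libraries behind a mean could differ. Replicates 1 and 2 had nuclear sums of 44494 and 31080 CPM at AL ZT6, and of 29421 and 15944 CPM at CR ZT10. In both groups replicate 1 is a library of low ribosomal RNA share. Short messengers varied more than long ones: over the 77 nuclear members above 10 CPM, Spearman's rho between the length of the coding transcript and the SD of log2 CPM across libraries was -0.54, a description across genes that share their libraries. The median SD was 0.62 for the 58 members under 1000 bases and 0.51 for the 19 longer ones, and it was 0.49 over all 5716 genes above 10 CPM.

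**Figure D2:**
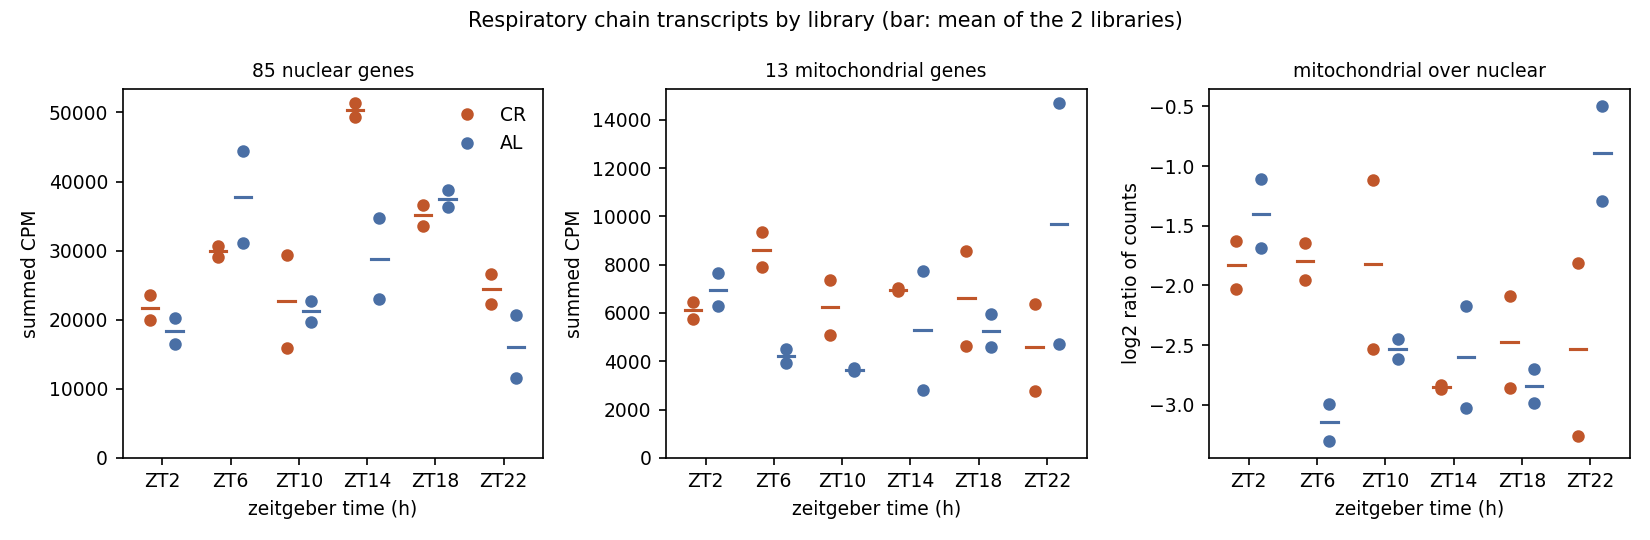
Summed CPM of the 85 nuclear genes (left) and of the 13 mitochondrial genes (middle) and the log2 ratio of their counts (right) by zeitgeber time, CR in orange and AL in blue; each point is a library and each bar the mean of 2. Both CR libraries lie above both AL libraries at ZT14 and ZT22 in the left panel and below them at ZT6.

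Averaged over the 6 time points, a few members were higher in CR and none was lower. The question of this comparison is what restriction does to the polysome-associated RNA irrespective of the hour. Of the 94 members tested, 7 were called (7.45%), and all 7 were higher under CR. The test was the quasi-likelihood F-test of edgeR, with p-values adjusted over all 15490 genes tested (Benjamini-Hochberg) and a threshold of 0.05. Over all genes tested 12.7% were called, 5.60% as higher and 7.05% as lower in CR, so the 7.45% of members called lay below the share of all genes called in either direction and above the share called as higher. The fitted difference was positive in 82 of the 94 members, against 48.5% of all genes. Its median was 0.21 log2 units over the 83 nuclear members, 0.41 over the 11 mitochondrial members and -0.02 over all genes. The 11 ran from -0.24 to 0.81. They include mt-Co2, mt-Co3, mt-Atp6 and mt-Nd3, which share over 97% of their 50-base words with other genes, so their median is not set against the nuclear one. The members share libraries, so these counts are a description.

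In complex I, 3 of the 38 nuclear members were called. Ndufa5, an accessory subunit of the matrix arm (ENSMUSG00000023089.12, chr6:24518666-24528013), had a lowest, median and highest level of 126, 433 and 599.9 CPM in CR libraries and 76.2, 203 and 424 CPM in AL libraries. The ranges overlap, and the CR library at 126 CPM is ZT10 replicate 2. The fitted difference was 0.79 ± 0.20 log2 units (± SE, adjusted p = 0.0121), positive at 6 of 6 time points. Ndufv1, which holds the NADH binding site (chr19:4007384-4012806), ranged from 98.1 to 343 CPM in CR libraries and from 61.8 to 229 CPM in AL libraries, with a difference of 0.45 ± 0.13 (adjusted p = 0.0245), positive at 5 of 6. Ndufs7, an iron-sulfur subunit next to the ubiquinone site (chr10:80249121-80256794), ranged from 119.7 to 643 CPM in CR and from 68.1 to 529 CPM in AL, with a difference of 0.50 ± 0.16 (adjusted p = 0.0447). The other 35 nuclear members of complex I had differences from -0.23 to 0.62 log2 units, and Ndufb7, at 0.62 ± 0.21, came nearest to the threshold with an adjusted p of 0.0508.

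On the average over time points, no gene of succinate dehydrogenase, complex II, was called. The median difference of its 4 genes was 0.18, against 0.21 over the nuclear members. Sdha, the flavoprotein that oxidises succinate, had a median of 298 CPM in CR libraries and 246 CPM in AL libraries and a difference of 0.19 ± 0.17 (adjusted p = 0.511). Sdhb differed by 0.13 ± 0.17 (adjusted p = 0.7) and the membrane anchors Sdhc and Sdhd by 0.19 ± 0.13 (adjusted p = 0.396) and 0.18 ± 0.14 (adjusted p = 0.451), all by edgeR. None of the 4 had a p under 0.05 even without adjustment.

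In complex III the called gene was Uqcrfs1, the Rieske iron-sulfur protein that hands electrons to cytochrome c1 (ENSMUSG00000038462.3, chr13:30540308-30545362). Its lowest, median and highest levels were 237, 376 and 596 CPM in CR libraries and 112, 252 and 441 CPM in AL libraries. The difference was 0.54 ± 0.16 log2 units (adjusted p = 0.0264), positive at 5 of 6 time points, and the other 7 nuclear members lay between -0.18 and 0.36. In complex V, Atp5h, which encodes subunit d of the stalk that holds the catalytic head still (ENSMUSG00000034566.10, chr11:115415689-115419962), was called. Its lowest, median and highest levels were 299, 514 and 781 CPM in CR libraries and 136, 344 and 613 CPM in AL libraries, and 19.9% of its 50-base words also occur elsewhere, mostly in Gm10250. The difference was 0.64 ± 0.16 (adjusted p = 0.0109), positive at 6 of 6 time points, and the other 16 members ranged from -0.25 to 0.43. The catalytic subunit genes Atp5a1 and Atp5b differed by 0.24 ± 0.15 and 0.35 ± 0.16 and were not called (adjusted p = 0.326 and 0.167).

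Cox7a1 of complex IV had the largest difference of the called members (ENSMUSG00000074218.3, chr7:30184144-30186078). It is the form of subunit VIIa that prevails in muscle and heart, and in liver its level was low. Its lowest, median and highest levels were 5.21, 15.7 and 31.1 CPM in CR libraries and 1.41, 5.20 and 9.85 CPM in AL libraries, and 2 CR libraries, ZT6 replicate 2 and ZT10 replicate 2, lie within the AL range. The difference was 1.44 ± 0.24 log2 units (adjusted p = 0.000231), positive at 6 of 6 time points. Its liver counterpart Cox7a2 had medians of 289 CPM in CR and 292 CPM in AL libraries and a difference of -0.17 ± 0.16 (adjusted p = 0.553). Of the other nuclear members of complex IV none was called, including Cox6a1 at -0.29 ± 0.17 and Cox4i1 at 0.39 ± 0.17, and Cox4i2, with under 0.5 CPM in every library, had no usable standard error.

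Cox7a1, Ndufa5 and Atp5h were the called members that kept their call with each of the 24 libraries left out in turn, and the count of calls then lay between 3 and 18. It moved by over 1.5 times without CR ZT10 replicate 2 (18 calls), without CR ZT2 replicate 1, CR ZT14 replicate 2 or AL ZT10 replicate 2 (4 calls each), without CR ZT18 replicate 1, AL ZT2 replicate 2, AL ZT6 replicate 2, AL ZT18 replicate 2 or AL ZT22 replicate 2C (3 calls each) and without AL ZT22 replicate 2d (11 calls). Without the 4 libraries of low ribosomal RNA share, a setting chosen after the data were seen, Ndufa5 (0.48 ± 0.18, adjusted p = 0.0993) and Atp5h (0.44 ± 0.17, adjusted p = 0.116) were no longer called by edgeR, nor were Uqcrfs1 and Ndufs7, while Cox7a1, Ndufv1 and mt-Co2 were.

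**Figure D3:**
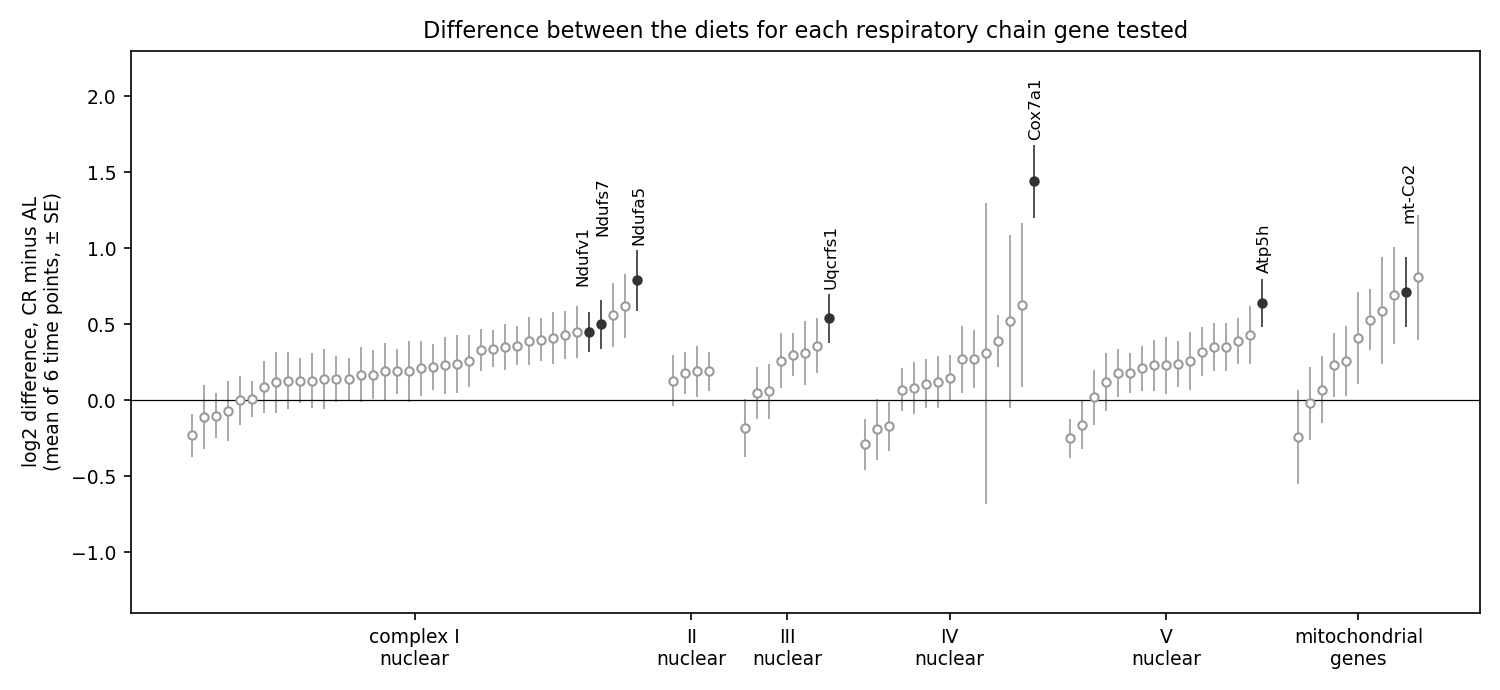
Fitted log2 difference, CR minus AL, averaged over 6 time points, with its SE, for the members tested, ordered by value within nuclear complexes I to V and among the mitochondrial genes; Cox4i2 is left out for want of a usable SE. Filled points are the 7 called members, of which Cox7a1 at 1.44 is the highest.

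Promoters are printed for Cox7a1, Ndufa5 and Atp5h, the members with the smallest p-values, so that the called members can be set beside the sequence elements known for respiratory genes. RefSeq promoters of GRCm38.p6, 250 bases before to 50 after a start site, matched 67 of the 85 nuclear members, with 72 windows among the 32851 of the table. The core motif of nuclear respiratory factor 1, GCGC and TGCGC with any base between them, occurred on either strand in 25.0% of the member windows and in 4.6% of all windows. CCGGAAG, the motif of the ETS factor GABP, occurred in 22.2% of member windows and 8.86% of all, AAGATGGC of YY1 in 12.5% and 2.75%, and CAAGGTCA of the oestrogen-related receptors in 5.56% and 1.56%. CACGTG, the E-box that clock factors bind, was in 8.33% of member windows and 7.15% of all, and TATAAA in 11.1% and 13.6%. The windows were not matched for base composition. The 250 bases before the start are given 5′ to 3′ in the direction of transcription, with matches to these motifs in capitals, for Cox7a1 at chr7:30183921-30184170 on the plus strand, for the upstream start of Ndufa5 at chr6:24527691-24527940 on the minus strand, and for Atp5h at chr11:115419920-115420169 on the minus strand.
Cox7a1: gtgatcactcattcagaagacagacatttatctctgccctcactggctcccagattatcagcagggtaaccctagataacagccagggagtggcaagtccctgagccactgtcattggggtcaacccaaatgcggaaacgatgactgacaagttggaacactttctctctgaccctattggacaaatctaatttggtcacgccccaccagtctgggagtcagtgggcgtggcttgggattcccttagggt
Ndufa5: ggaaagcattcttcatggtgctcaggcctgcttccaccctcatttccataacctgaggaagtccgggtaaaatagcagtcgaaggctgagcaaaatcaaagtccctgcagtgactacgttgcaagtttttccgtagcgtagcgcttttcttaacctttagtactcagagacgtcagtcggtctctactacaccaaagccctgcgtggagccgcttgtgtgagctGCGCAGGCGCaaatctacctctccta
Atp5h: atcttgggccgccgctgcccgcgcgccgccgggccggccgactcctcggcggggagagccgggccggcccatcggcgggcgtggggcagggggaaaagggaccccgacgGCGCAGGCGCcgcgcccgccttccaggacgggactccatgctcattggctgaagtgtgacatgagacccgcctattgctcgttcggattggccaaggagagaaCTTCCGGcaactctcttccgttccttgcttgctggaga
The Ndufa5 window holds the nuclear respiratory factor 1 core from 26 bases before the start, and the Atp5h window holds it from 141 bases and the GABP motif from 38 bases before the start. The Cox7a1 window holds none of the 6 motifs, which says only that these letters are not in this stretch.

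At single time points the median difference of the nuclear members was largest at ZT14, early in the dark phase, with all libraries in the fit. Both CR libraries lay above both AL libraries for 64 of the 83 nuclear members tested at ZT14 (77.1%, against 22.8% of all genes) and below them for 0 (against 22.3%). The median difference there was 0.73 log2 units, and it was 0.72 in complex I, 0.70 in complex II, 0.77 in complex III, 0.70 in complex IV and 0.77 in complex V. It was 1.15 without AL ZT14 replicate 1, which had a nuclear sum of 34755 CPM, and 0.48, below the value of ZT22, without AL ZT14 replicate 2, which had 22940 CPM. At ZT22 both CR libraries were above both AL libraries for 46 of 83 (55.4%, against 25.9% of all genes) and below them for 1 (1.20%, against 24.5%), with a median of 0.59. At ZT6 the order was turned: both CR libraries were below both AL libraries for 31 (37.3%, against 22.3%) and above them for 8 (9.64%, against 19.5%), with a median of -0.33. At the other time points the groups were less separated. At ZT2 both CR libraries were above both AL libraries for 29 (34.9%, against 23.2%) and below them for 3 (3.61%, against 27.1%), with a median of 0.18. At ZT10 the counts were 4 above (4.82%, against 16.6%) and 11 below (13.3%, against 21.9%), with a median of 0.09, and at ZT18 they were 9 above (10.8%, against 17.0%) and 12 below (14.5%, against 20.1%), with a median of -0.09. Of the 11 mitochondrial genes tested, 2, 5, 6, 6, 4 and 0 had both CR libraries above both AL libraries from ZT2 to ZT22. As shares these were 18.2%, 45.5%, 54.5%, 54.5%, 36.4% and 0%, against 23.2%, 19.5%, 16.6%, 22.8%, 17.0% and 25.9% of all genes. Both CR libraries were below for 3, 0, 0, 0, 0 and 2. These were 27.3% at ZT2 and 18.2% at ZT22, against 27.1% and 24.5%, and 0% between, against 20.1% to 22.3%. The 11 include mt-Co2, mt-Co3, mt-Atp6 and mt-Nd3, whose words occur almost wholly in other genes as well.

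Few of these differences passed the test at any time point. With 2 libraries a group, edgeR called 0 of 94 members at ZT2 (0.562% of all genes), ZT6 (0.387%), ZT10 (0.742%) and ZT14 (1.70%), and 1 each at ZT18 (0.562%) and ZT22 (0.936%). Both of these were higher in CR, as were 0.458% of all genes at ZT18 and 0.374% at ZT22. Unadjusted p-values under 0.05 were found for 3 members at ZT2, 3 at ZT6, 4 at ZT10, 32 at ZT14, 5 at ZT18 and 27 at ZT22. As shares of the members these were 3.19%, 3.19%, 4.26%, 34.0%, 5.32% and 28.7%, against 7.47%, 13.71%, 10.77%, 14.22%, 10.55% and 14.27% of all genes, so that the members lay above the share of all genes at ZT14 and ZT22 and below it at the other 4 time points. At ZT14 DESeq2 called 2 members (Cox7a1 and Atp5g3) and limma called 0, and at ZT2, ZT6 and ZT10 both called 0. The ZT14 member with the smallest p was Cox7a1, with 25.9 and 20.9 CPM in CR libraries and 7.63 and 2.74 CPM in AL libraries, a difference of 2.14 ± 0.60 log2 units (adjusted p = 0.0744). Atp5g3, the most abundant gene of the c-ring subunit, followed with a difference of 1.21 ± 0.40 (adjusted p = 0.152).

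**Figure D4:**
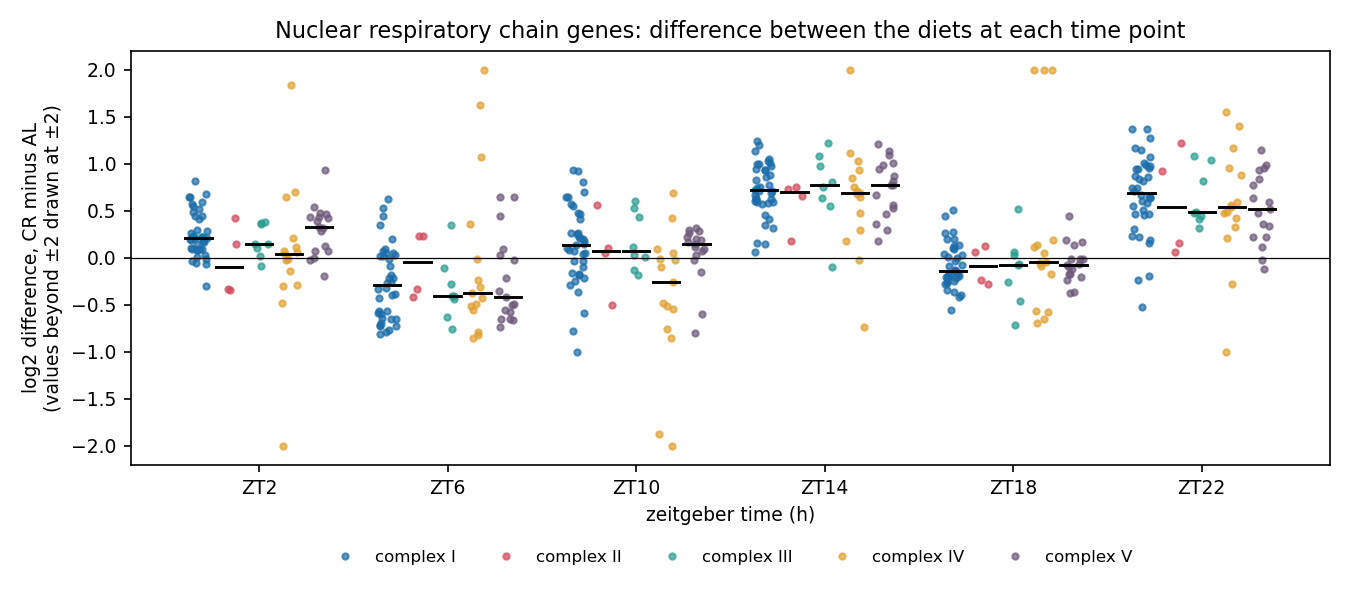
Fitted log2 difference, CR minus AL, at each zeitgeber time for the nuclear members tested, coloured by complex, with the median of each complex as a black bar; values beyond 2 in size are drawn at the edge and Cox4i2 is left out. The medians lie near 0.7 at ZT14, between 0.48 and 0.69 at ZT22, and at or below -0.05 at ZT6.

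At ZT22 the called member was Ndufc2, an accessory subunit of the membrane arm of complex I (ENSMUSG00000030647.8, chr7:97400003-97407802). It had 115 and 116 CPM in CR libraries and 43.4 and 46.1 CPM in AL libraries, which do not overlap. The difference was 1.37 ± 0.33 log2 units (adjusted p = 0.0495). The call was lost in 18 of the 24 fits that each left out a library, with the highest adjusted p, 0.321, without AL ZT22 replicate 2C. That library also had the lowest sum of nuclear members, and the nuclear median at ZT22 was 0.31 without it and 1.11 without replicate 2d.

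The values of ZT6 and ZT10 moved with libraries of low ribosomal RNA share. At ZT6 the summed nuclear members had 29122 and 30671 CPM in CR libraries, against 44494 CPM in AL replicate 1, the library with 1.02% of its counts on ribosomal RNA features, and 31080 CPM in AL replicate 2. Without the 4 libraries under 3% the nuclear median at ZT6 was -0.05 and that at ZT10 -0.62, while those at ZT14 and ZT22 were 0.72 and 0.54. At ZT10 the 2 CR libraries differed, with 29421 CPM in replicate 1 (2.42% on ribosomal RNA features) and 15944 CPM in replicate 2 (52.1%). With the log2 ratio of ribosomal RNA to other reads as a covariate in the fit, the nuclear medians from ZT2 to ZT22 were 0.36, -0.01, 0.03, 0.62, -0.17 and 0.38, against 0.18, -0.33, 0.09, 0.73, -0.09 and 0.59 without it. In that fit the 7 members called on the diet average kept their calls, and Ndufc2 at ZT22 did not (1.17 ± 0.34, adjusted p = 0.123 by edgeR).

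At ZT18 the called member was Cox8b, the muscle form of subunit VIII (ENSMUSG00000025488.9, chr7:140898945-140900446). It had 31.0 and 17.7 CPM in CR libraries and 0.238 and 0.515 CPM in AL libraries, a difference of 5.93 ± 0.95 log2 units (adjusted p = 0.00511). The call was lost without AL ZT18 replicate 1 (adjusted p = 0.0625) and without replicate 2 (adjusted p = 0.143). Cox6a2, the muscle form of subunit VIa, had 35.5 and 34.95 CPM in CR and 0.808 and 0 CPM in AL libraries at ZT18, with an adjusted p of 0.0508. Outside ZT18 both genes were above 1 CPM in a single library, CR ZT6 replicate 1, with 2.09 CPM of Cox8b and 4.77 CPM of Cox6a2.

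The skeletal muscle markers Acta1 and Ckm were highest in the same 3 libraries. Acta1, the actin of skeletal muscle, had 120.0 and 159 CPM in the CR ZT18 libraries and 21.8 CPM in CR ZT6 replicate 1, and at most 1.81 CPM in the other 21 libraries. Ckm, the muscle creatine kinase, had 7.58, 10.3 and 2.01 CPM in those 3 libraries and at most 0.190 CPM elsewhere. The 5 muscle markers (Acta1, Ckm, Myh7, Tnnt2 and Tnnc2) summed to 28.9 to 174 CPM in the 3 libraries and 0.0858 to 2.99 CPM in the others. Tnnt2 had 1.87 and 4.11 CPM at CR ZT18 and 5.02 CPM in CR ZT6 replicate 1. Its range elsewhere, 0.0858 to 2.32 CPM, covers the value of CR ZT18 replicate 1. Tnnc2 was at 0 in all 3, Myh7 was at most 0.654 CPM, and the brown fat marker Ucp1 was at most 0.0536 CPM anywhere. The part of muscle transcripts in the Cox8b and Cox6a2 values was not tested. Cox7a1 had 31.1 and 25.7 CPM at CR ZT18 and 10.97 CPM in CR ZT6 replicate 1, against 7.37 CPM in CR ZT6 replicate 2. In CR libraries where Acta1 was at or under 1.81 CPM, Cox7a1 had 15.2 and 17.2 CPM at ZT2 and 11.45 and 5.21 CPM at ZT10. It had 25.9 and 20.9 CPM at ZT14 and 16.2 and 10.6 CPM at ZT22 in such libraries, which also include CR ZT6 replicate 2. Cox7a1 lay within its AL range in CR ZT6 replicate 2 and CR ZT10 replicate 2. Without ZT18 and CR ZT6 replicate 1, a setting chosen after the data were seen, its difference was 1.25 ± 0.26 (adjusted p = 0.00413 by edgeR).

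**Figure D5:**
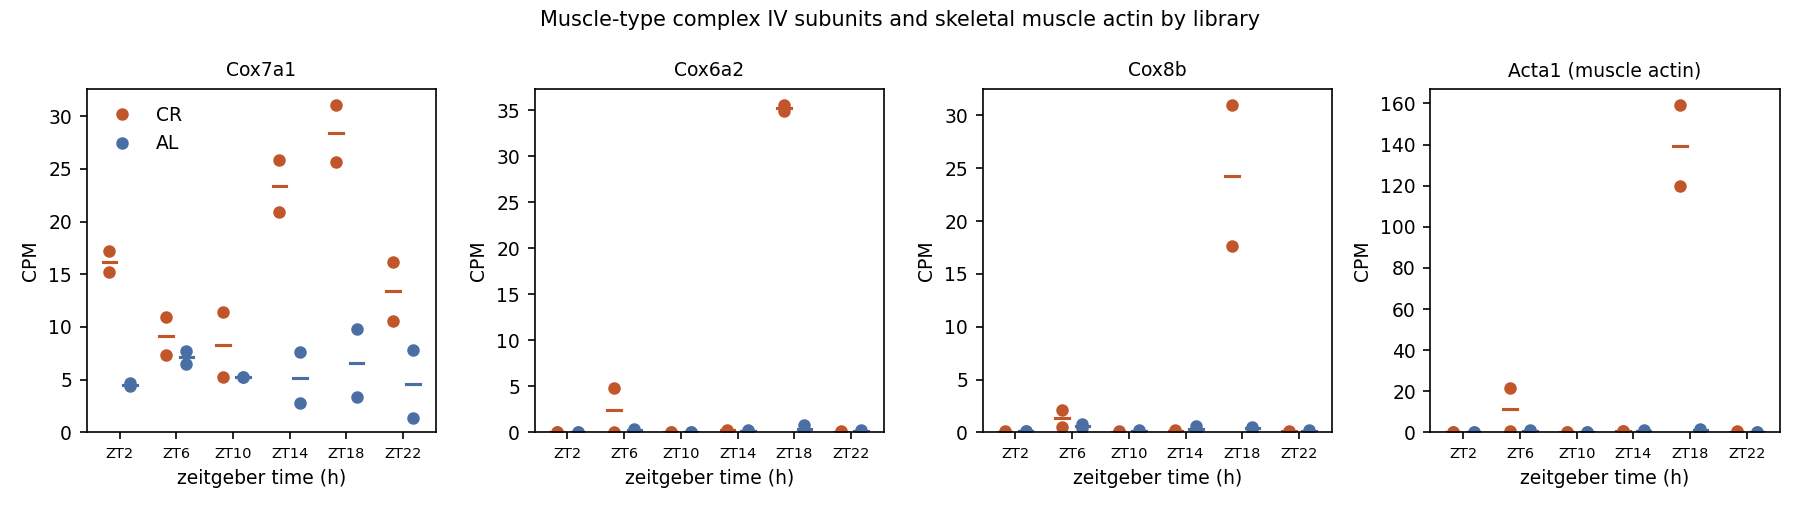
CPM of Cox7a1, Cox6a2, Cox8b and the skeletal muscle actin gene Acta1 by zeitgeber time, CR in orange and AL in blue; each point is a library and each bar a mean of 2. Cox6a2, Cox8b and Acta1 rise above the axis at CR ZT18 and in CR ZT6 replicate 1, and Cox7a1 is above its AL values at CR ZT18 and also at CR ZT2, ZT14 and ZT22.

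Whether the diet difference varied with time was tested with the interaction of diet and time point. No member was called by edgeR's quasi-likelihood F-test, and 0% of all genes were; 12 of the 94 members (12.8%, against 8.63% of all genes) had an unadjusted p under 0.05, DESeq2 called 3 members and limma 0. The smallest p-values belonged to Cox8b (adjusted p = 0.289), Cox5a (0.449), Ndufa4 (0.478), Ndufc2 (0.495) and Ndufb6 (0.513). Cox5a, a nuclear subunit on the matrix face of complex IV, had 300.2 and 224 CPM at CR ZT14 against 157 and 118.5 CPM at AL ZT14, and 72.4 and 91.55 CPM at CR ZT18 against 104 and 160.1 CPM at AL ZT18. At ZT14 its CR libraries were above its AL libraries and at ZT18 below them.

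No member was called as rhythmic. A cosine curve of 24 h called 0 of 94 members in CR (1.94% of all genes) and 0 in AL (0.420%), with 19 and 5 members under an unadjusted p of 0.05 (20.2% in CR, against 17.43% of all genes, and 5.32% in AL, against 10.38%). DESeq2 called 0 members in CR and 1 in AL, and limma called 0 in both. The fitted peak in CR lay between ZT12 and ZT18 for 70 of 83 nuclear members, with a median amplitude, the distance from mean to peak, of 0.44 log2 units. In AL the peak lay in that window for 48 and between ZT6 and ZT12 for 32, with a median amplitude of 0.35. In CR the smallest p-values were those of Cox8b (adjusted p = 0.117), Atp5g2 (0.126), Atp5c1, the central stalk subunit of ATP synthase (0.163), Cox7a1 (0.190) and Sdhc (0.201), with peaks at ZT 18.6, 15.9, 15.4, 18.3 and 15.1. In AL they were those of mt-Co1 (adjusted p = 0.244), Ndufv1 (0.417), Atp5g2 (0.427), Uqcrc1 (0.454) and Ndufc2 (0.461).

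The rhythms of the diets were not shown to differ in any member. The test of the difference called 0 of 94 members and 0% of all genes with edgeR, with 2 members under an unadjusted p of 0.05 (2.13%, against 6.49% of all genes), and DESeq2 and limma called 0. Those 2 were mt-Co1, the catalytic subunit gene of complex IV, and mt-Nd4, a proton-pumping subunit gene of complex I, both with an adjusted p of 0.766. mt-Co1 had a fitted amplitude of 0.85 log2 units with a peak at ZT 5.6 in CR, and of 1.12 with a peak at ZT 23.0 in AL. mt-Nd4 had 0.39 with a peak at ZT 11.1 in CR and 0.54 with a peak at ZT 21.9 in AL. Ndufc2, Cox8b and Cox7a1 followed with adjusted p-values of 0.784, 0.815 and 0.821.

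The mitochondrial sum had its extremes in other libraries than the nuclear sum. It ranged from 2781 CPM in CR ZT22 replicate 1, one of the 4 libraries of low ribosomal RNA share, to 14679 CPM in AL ZT22 replicate 2d (per counted read, from AL ZT14 replicate 2 to AL ZT2 replicate 2), and averaged 6517 ± 1795 CPM in CR and 5844 ± 3193 CPM in AL libraries (SD, n = 12 each). In AL the fitted peak of all 11 mitochondrial genes tested lay in the 12 h between ZT18 and ZT6, and in CR that of 3 did. None of them was called as rhythmic by edgeR. The log2 ratio of mitochondrial to nuclear counts ran from -3.26 to -1.11 in CR libraries and from -3.30 to -0.50 in AL libraries, and averaged -2.22 ± 0.646 in CR and -2.23 ± 0.894 in AL. The mean difference over the 6 time points was 0.02, and it was not tested. The SD between libraries of a group was 0.535, which is a spread of single libraries and not the error of that mean. At ZT6 the ratio was -1.64 and -1.96 in CR libraries against -3.30 and -2.99 in AL libraries, and at ZT22 it was -3.26 and -1.81 in CR libraries against -1.29 and -0.50 in AL libraries.

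Single mitochondrial genes differed in how they behaved. mt-Co1 held 425 and 678 CPM at CR ZT22 and 1561 and 5087 CPM at AL ZT22, the highest value of any mitochondrial protein gene, and its diet average was -0.24 ± 0.31 (adjusted p = 0.702). mt-Nd1, a core subunit gene of complex I next to the ubiquinone site, had a median of 1013 CPM in CR libraries and 590 CPM in AL libraries and a difference of 0.53 ± 0.20 (adjusted p = 0.0901). mt-Cytb differed by -0.02 ± 0.24 (adjusted p = 1.00), mt-Nd2 by 0.07 ± 0.22 (0.918) and mt-Nd4 by 0.23 ± 0.21 (0.533). Of the genes listed with few counts, mt-Nd3, mt-Co3 and mt-Atp6 differed by 0.69 ± 0.32 (adjusted p = 0.165), 0.26 ± 0.23 (0.528) and 0.41 ± 0.30 (0.411). mt-Co2, at 3.06 to 10.8 CPM in CR and 1.49 to 6.57 CPM in AL libraries, was called with a difference of 0.71 ± 0.23 (adjusted p = 0.0429); its copy Gm28661 had a difference of 0.73 ± 0.23 (adjusted p = 0.0417).

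mt-Nd5 and mt-Nd6, which lie on opposite strands at the end of the complex I genes, moved with the ribosomal RNA share. The reads carry no strand information, so counts listed under mt-Nd6 can include reads from the opposite strand. mt-Nd5 had 96.3 to 125 CPM in the 4 libraries under 3%, and 296 to 1632 CPM in the other 20, and the ranges do not overlap. The log2 ratio of mt-Nd5 to mt-Nd4 was -3.30 to -2.10 in those 4 and -1.29 to 1.19 in the others. mt-Nd6 had 55.0 to 182 CPM in the 4 and 209 to 902 CPM in the others, while mt-Nd1 had 651 to 1506 CPM in the 4 and 434 to 1805 CPM in the others. The mitochondrial ribosomal RNAs stood apart in the same libraries, with 508 to 1419 CPM of mt-Rnr1 and 1028 to 3294 CPM of mt-Rnr2 in the 4, and 4334 to 71123 CPM of mt-Rnr1 and 13104 to 170751 CPM of mt-Rnr2 in the others. Of the 4 libraries 3 are CR and 1 is AL. On the diet average mt-Nd5 differed by 0.81 ± 0.41 (adjusted p = 0.220) and mt-Nd6 by 0.59 ± 0.35 (adjusted p = 0.289), and without the 4 libraries both were called.

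Genes around the chain were taken from lists chosen with earlier results of these data known. The share of all genes called on the diet average, 5.60% as higher and 7.05% as lower, applies to each list. Of 12 regulators of respiratory chain transcription, 2 were higher in CR and 0 were lower. Ppargc1a, the coactivator that drives mitochondrial biogenesis, averaged 9.76 ± 6.42 CPM in CR and 2.88 ± 1.15 CPM in AL libraries (SD, n = 12 each), a difference of 1.62 ± 0.22 log2 units (adjusted p = 2.24e-05). Its paralog Ppargc1b averaged 10.2 ± 9.05 CPM in CR and 4.41 ± 2.53 CPM in AL, a difference of 0.94 ± 0.23 (adjusted p = 0.00772). The list held Nrf1, Gabpa, Esrra, Yy1 and Tfam too, and these were not called.

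Of 46 assembly factors tested, 1 was higher and 3 were lower in CR, shares below those of all genes. Cox10, which makes the haem A precursor of complex IV, differed by 0.64 ± 0.17 (adjusted p = 0.0136). Cox19, Cox18 and Atpaf1, assembly factors of complex IV and of the ATP synthase head, differed by -0.97 ± 0.15 (adjusted p = 0.000163), -0.77 ± 0.21 (0.0171) and -0.66 ± 0.19 (0.0276). Of 21 electron carriers and accessory subunits outside the rule, 2 were higher and 2 lower. The higher ones were Etfa and Etfb, the 2 chains of the flavoprotein that takes electrons from fatty acid oxidation, at 0.50 ± 0.14 (adjusted p = 0.0220) and 0.90 ± 0.21 (adjusted p = 0.00635). The lower ones were Higd2a at -0.66 ± 0.19 (adjusted p = 0.0214) and Dmac1 at -0.52 ± 0.15 (adjusted p = 0.0234). Of 23 factors for mitochondrial RNA and DNA tested, 0 were higher and 1 was lower, the transcription elongation factor gene Tefm, at -0.53 ± 0.15 (adjusted p = 0.0242). The median differences of the 4 lists, 0.10 for the regulators, -0.06 for the assembly factors, 0.01 for the carriers and -0.02 for the RNA and DNA factors, lay near the -0.02 of all genes.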

How the data were processed

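Polysome-associated polyadenylated RNA was measured in 24 liver libraries, 2 for each of 12 groups of diet and zeitgeber time. The authors deposited raw counts of reads per gene; per the submitters' processing notes FastQC, HTSeq and DESeq2 were used with the build GRCm38.p5, and an aligner is not given in the sources used here. No column belonged to another series (0 columns left unmapped). The counts were fitted with edgeR 4.0.16 in R 4.3.3 (trimmed-mean scaling, edgeR's filter on low counts, 15490 genes kept, quasi-likelihood test) with a mean for each of the 12 groups. Contrasts gave the diet difference averaged over time points, at each time point, and its interaction with time, and cosine terms of 24 h gave rhythms. P-values were adjusted over all genes tested by the Benjamini-Hochberg method, and an adjusted p under 0.05 was called. CPM divide a count by the library's total, ribosomal RNA features included, times its trimmed-mean factor, as the fits do. Counted reads ranged from 13.8 to 60.8 M per library. The code was tested on simulated data with known changes.

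Alternatives were DESeq2 1.42.0, limma 3.58.1, other scalings, filters and covariates, and leaving out libraries. Leaving out the 4 libraries of low ribosomal RNA share, leaving out ZT18 with CR ZT6 replicate 1, the ratio without mt-Nd5 and mt-Nd6, and transcript length in place of exon length were chosen after the data were seen. Members and lists were chosen with earlier results of these data known. Genes named were all mitochondrial genes, members called, the 5 of smallest p in the interaction and rhythm tests, tissue isoforms, complex II, the highest and lowest level per complex, and up to 4 called genes of each other list; Ndufb7, Cox6a2, Atp5a1, Atp5b, Atp5g3 at ZT14, Cox7a1 at ZT14, Uqcrq and Uqcr11 were named after their values were seen. Shared words of 50 bases and coordinates come from the GENCODE annotation of GRCm38, promoters from RefSeq GRCm38.p6.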

Additional observations from a re-analysis of the deposited data

Results flagged for a closer look

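The CR minus AL difference in the summed level of the nuclear respiratory chain genes had opposite directions at different time points. It was -0.34 log2 units at ZT6, where both CR libraries lay below both AL libraries, and 0.80 at ZT14 and 0.60 at ZT22, where both CR libraries lay above both AL libraries. The log2 ratio of mitochondrial to nuclear counts also went opposite ways, with a CR minus AL difference of 1.35 at ZT6 and -1.64 at ZT22. The differences between time points in these sums and ratios were not tested. AL ZT6 replicate 1 and CR ZT22 replicate 1, of the groups involved, are among the 4 libraries of low ribosomal RNA share. Without them the nuclear differences were -0.06 at ZT6 and 0.47 at ZT22, and those of the ratio 1.19 at ZT6 and -0.92 at ZT22, with 1 library left in the group concerned. The median fitted difference of the nuclear members at ZT6 was -0.33 with all libraries, -0.05 without the 4 libraries and -0.01 in the fit that carries the ribosomal RNA ratio as a term.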

How the results depend on the processing

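The 7 calls of the diet average became 2 without a composition factor, 11 without the low-count filter, 11 with at least 1 CPM in 12 libraries, 18 with DESeq2, 4 with a change of at least 1.5-fold, 4 without CR ZT6 replicate 2 and CR ZT18 replicate 2, and 3 without AL ZT22 replicate 2C and AL ZT10 replicate 1. The 2 calls at single time points became 29, 13, 1 and 10 without a composition factor, without the low-count filter, with at least 1 CPM in 12 libraries and with DESeq2. Without the low-count filter there were 6 calls of diet by time, 4 of rhythm in CR, 1 of rhythm in AL and 2 of the rhythm difference, against 0 each; DESeq2 gave 3 calls of diet by time and 1 of rhythm in AL, and no composition factor gave 1 of rhythm in CR. The causes were not tested. Leaving out each library in turn gave 3 to 18 calls for the diet average, 1 to 6 at single time points (1 without any library of ZT14 or ZT18, 6 without either library of CR ZT10, 4 without AL ZT22 replicate 2d), 0 to 2 for rhythm in CR and 0 to 1 for the rhythm difference, the highest of these last both without CR ZT6 replicate 1. Of the 10 highest levels per length, 3 were among the highest with no length correction and 4 with transcript length. Without a composition factor the median of all genes shifted to between -0.80 at ZT2 and 0.91 at ZT22; relative to it, the nuclear median was -0.36 at ZT6, 0.69 at ZT14 and 0.70 at ZT22. Replicate numbers are shared between the diets. The correlations across genes between the replicate difference in AL and that in CR were -0.0526, -0.0313, 0.2024, 0.0271 and -0.0501 from ZT2 to ZT18. ZT22, where the AL labels differ, was not included. With a single pair of libraries per diet and time point, these values cannot show whether same-numbered libraries share a batch. With the replicate block 6 members were called on the diet average, and 2 at single time points.

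With 2 libraries a group, spread at single time points is estimated from all groups together. The 9 gene differences called kept their sign under every alternative run. The nuclear medians near 0 did not: that of ZT10, 0.09, was -0.62 without the 4 libraries of low ribosomal RNA share, -0.11 without a composition factor, -0.03 with limma, -0.03 without AL ZT22 replicate 2C and AL ZT10 replicate 1, and -0.56 to 0.45 with single libraries left out. Without a composition factor that of ZT2, 0.18, was -0.58 and that of ZT18, -0.09, was 0.14. The ratio of mitochondrial to nuclear counts, 0.02, was -0.07 without mt-Nd5 and mt-Nd6 and -0.1 to 0.14 with single libraries left out.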
